A study of Mus musculus with 12 samples.

Results

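The B lineage transcription factors described here are 10 genes, Pax5, Ebf1, Ikzf1, Ikzf3, Foxo1, Bach2, Spib, Pou2af1, Erg and Bcl11a, chosen by name from 23479 genes in a table of normalized read counts. All 10 were in the table, and all 10 were among the 13111 genes tested. When 4-hydroxytamoxifen (4-OHT) was given to lymphoma cells that carried an inducible TFEB, 7 of these factors fell, Erg by the largest fold, and Ikzf1, Pou2af1 and Bcl11a rose. In cells with the empty vector 0 of the 10 passed the test for 4-OHT in limma or edgeR, and DESeq2 called Erg. In limma 27.5% of all tested genes passed in TFEB cells and 0.0153% in vector cells. The 3 that rose also had positive log2 changes in vector cells, 0.26 for Bcl11a, 0.24 for Ikzf1 and 0.14 for Pou2af1. In limma the responses of these 3 were not shown to differ between TFEB and vector cells.

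The RNA came from cultured cells of 1 mouse B cell lymphoma, taken from a C57BL/6 animal with the transgenes Eµ-Myc and Eµ-rtTA, in which the Eµ enhancer of the immunoglobulin heavy chain locus drives the transgene in lymphoid cells. The groups were TFEB cells in 4-OHT, TFEB cells in vehicle, vector cells in 4-OHT and, last, vector cells in vehicle, with 3 libraries each and 12 in all. TFEB cells had received a retrovirus with TFEB, which is known to switch on genes of lysosomes and autophagy, whose Ser-211 was changed to Ala and which was fused to ER-T2, an altered hormone-binding part of the human estrogen receptor that 4-OHT activates. Vector cells had received an empty retrovirus. Both lines shared the Myc and rtTA transgenes, selection in puromycin and medium with IL-7, a growth factor of B cell precursors, and treatment lasted 4 days. The figure given for 4-OHT is 250, in nM in the labels' protocols and in ng/mL in the series' design text, and the dose is therefore not settled. Nothing in the labels states that the 3 libraries of a group came from separate cultures, so a p-value reflects the spread among these libraries alone, which may be technical. Each line comes from the same lymphoma, and the effect of the fusion without ligand and other differences between the transduced lines cannot be told apart.

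B cells arise from lymphoid precursors through a chain of transcription factors. Foxo1 and Ebf1 act early and switch on the genes of the precursor B cell receptor and of V(D)J recombination, and Pax5 then commits cells to the lineage by activating B cell genes and repressing genes of other lineages. The zinc finger proteins Ikzf1 (Ikaros) and Ikzf3 (Aiolos) govern the passage from dividing to resting precursors, while Bach2 and Spib restrain plasma cell differentiation. Pou2af1 is the coactivator through which octamer-binding proteins act in B cells. Erg is an ETS factor of stem cells and early B cell precursors, and Bcl11a is a zinc finger repressor without which B cells do not form.

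Libraries held 11849029 to 22109283 reads and 11390 to 19250 genes with reads. Tfeb, counted from reads assigned to the mouse gene, averaged 665 ± 72.6 in TFEB cells in 4-OHT, 1676 ± 249 in TFEB cells given vehicle, 221 ± 23.4 in vector cells given 4-OHT and 243 ± 17.7 in vector cells in vehicle (SD, n = 3 each), and every TFEB library was above every vector library. Of the 12 genes listed as B cell markers, 11 had a mean over 100. The precursor genes Vpreb1 and Igll1 were among them, and Ms4a1, the CD20 gene of later B cells, reached at most 20.7. The hemoglobin genes were at 0 in all libraries, while the sum of 10 erythroid markers reached 69.7 in TFEB cells in 4-OHT. Of 16 myeloid markers Lyz2, S100a8, S100a9 and Cebpa stayed below 10, while the others reached at most 77.4 (Itgam) apart from Cd68, which reached 247.

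The promoters of 3 of the factors are shown because these factors had different responses, Pax5 falling, Pou2af1 rising and Erg falling most. Each window runs from 250 bases before to 50 bases after a RefSeq start (GRCm38.p6, the build also called mm10), 5′ to 3′ on the gene's own strand, with every CANNTG, the core of the E-box, in capitals. The Pax5 window lies on the minus strand at chr4:44710645-44710944, the Pou2af1 window on the plus strand at chr9:51213440-51213739 and the Erg window on the minus strand at chr16:95459299-95459598, at the third of the RefSeq starts of Erg, chosen after the search because the windows at its other 2 starts hold no CANNTG.
Pax5: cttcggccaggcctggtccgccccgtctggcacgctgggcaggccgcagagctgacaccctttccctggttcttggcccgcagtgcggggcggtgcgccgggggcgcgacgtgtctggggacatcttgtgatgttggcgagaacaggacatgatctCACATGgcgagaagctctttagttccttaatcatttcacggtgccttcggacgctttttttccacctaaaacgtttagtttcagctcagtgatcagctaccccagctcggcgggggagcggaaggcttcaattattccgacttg
Pou2af1: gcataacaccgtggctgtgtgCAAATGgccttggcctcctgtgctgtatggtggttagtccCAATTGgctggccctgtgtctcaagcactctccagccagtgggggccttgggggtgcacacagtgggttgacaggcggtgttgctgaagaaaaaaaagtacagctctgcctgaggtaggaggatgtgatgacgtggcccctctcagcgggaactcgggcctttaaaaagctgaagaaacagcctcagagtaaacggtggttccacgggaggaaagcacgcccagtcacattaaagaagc
Erg: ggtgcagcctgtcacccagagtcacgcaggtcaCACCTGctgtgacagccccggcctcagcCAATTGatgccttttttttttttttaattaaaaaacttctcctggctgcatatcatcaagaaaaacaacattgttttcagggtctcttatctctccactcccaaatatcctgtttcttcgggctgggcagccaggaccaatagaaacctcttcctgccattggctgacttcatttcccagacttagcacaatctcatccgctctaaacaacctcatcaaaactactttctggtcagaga

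RefSeq's table held 13 such windows for 9 of the 10 factors, Ikzf3 having none there. CACGTG, the E-box that TFEB and MYC are known to bind, was in 0 of the 13 windows, against 7.15% of 32851 windows of the same length for all genes. CANNTG, which includes CACGTG, was in 7 of the 13, against 72.3% of all windows. ATGCAAAT, the octamer through which Pou2af1 acts with its POU partners, was in 0 of the 13, against 1.74% of all. These motifs were searched on both strands, and no match says only that the letters are not in these windows.

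Pax5 and Ebf1, the commitment factor and the factor that acts before it, both fell in TFEB cells given 4-OHT. Pax5 (4:44524757-44710487, mm10, minus strand) had 2438, 1820.0 and 2101 normalized counts in TFEB cells in 4-OHT, 5058, 5657 and 4327 in TFEB cells in vehicle, 4370.3, 4531 and 4664 in vector cells in 4-OHT, and 4766, 3992 and 4179 in vector cells in vehicle. The 3 TFEB libraries in 4-OHT lay below all 9 others, and the other groups overlapped. On the log2(value + 1) scale Pax5 changed by -1.24 ± 0.10 (SE), a 2.37-fold fall (adjusted p = 1.8e-11, limma). Ebf1 (11:44617317-45008091, plus strand) had 2296, 2228 and 2392 in TFEB cells in 4-OHT, 6558, 7025 and 6281 in TFEB cells in vehicle, 5676, 5881 and 5375 in vector cells in 4-OHT, and 5594, 5665 and 5920.4 in vector cells in vehicle. Its values in TFEB cells in 4-OHT were again the lowest, and those in TFEB cells in vehicle were the highest and did not overlap with any other group. Ebf1 fell 2.87-fold (log2 -1.52 ± 0.08 SE, adjusted p = 3.74e-16, limma).

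Foxo1, which is held in the cytoplasm by AKT and drives Rag and Il7r expression in precursors, fell less. Foxo1 (3:52268336-52353221, plus strand) had 2296, 2274 and 2189 in TFEB cells in 4-OHT, 3755, 3969 and 2999.7 in TFEB cells in vehicle, 3165, 3393 and 2547 in vector cells in 4-OHT, and 3122, 3344 and 3591 in vector cells in vehicle. The TFEB libraries in 4-OHT were the 3 lowest of the 12, but the lowest vector library in 4-OHT came close. The fall was 1.58-fold (log2 -0.66 ± 0.10 SE, adjusted p = 7.14e-06, limma).

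The Ikaros family members moved in opposite directions. Ikzf3 (11:98464902-98546031, minus strand) had 1627, 1449.6 and 1749 in TFEB cells in 4-OHT, 4535, 5074 and 4515 in TFEB cells in vehicle, 4545, 4423 and 4939 in vector cells in 4-OHT, and 4613, 4246 and 4452 in vector cells in vehicle. All libraries outside TFEB cells in 4-OHT lay in 1 overlapping band. Ikzf3 fell 2.93-fold (log2 -1.55 ± 0.09 SE, adjusted p = 2.74e-15, limma). Ikzf1 (11:11685003-11772926, plus strand) had 6376, 6249 and 6535 in TFEB cells in 4-OHT, 4231, 4643 and 4043 in TFEB cells in vehicle, 6525, 5529.8 and 7056 in vector cells in 4-OHT, and 5672, 5158 and 5315 in vector cells in vehicle. Here TFEB cells in vehicle were lowest, and TFEB cells in 4-OHT overlapped with vector cells in 4-OHT. Ikzf1 rose 1.49-fold with 4-OHT in TFEB cells (log2 0.57 ± 0.09 SE, adjusted p = 3.91e-06, limma). The ratio of Ikzf3 to Ikzf1 counts, which is not corrected for length and so compares groups and not the genes, was 0.252 ± 0.018 in TFEB cells in 4-OHT, 1.09 ± 0.022 in TFEB cells given vehicle, 0.732 ± 0.059 in vector cells given 4-OHT and 0.825 ± 0.012 in vector cells in vehicle (SD, n = 3 each). The ratio of Pax5 to Ebf1 was 0.919 ± 0.127 in TFEB cells in 4-OHT, 0.755 ± 0.060 in TFEB cells given vehicle, 0.803 ± 0.056 in vector cells given 4-OHT and 0.754 ± 0.085 in vector cells in vehicle (SD, n = 3 each). Its lowest value in TFEB cells in 4-OHT, 0.817, was just above the highest in TFEB cells in vehicle, 0.805, and both vector groups overlapped with both TFEB groups.

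Bach2 and Spib, both known to hold back plasma cell genes, fell. Bach2 (4:32238804-32586108, plus strand) had 3742, 3829.8 and 3574 in TFEB cells in 4-OHT, 7941, 7008 and 7075 in TFEB cells in vehicle, 8717, 7715 and 9308 in vector cells in 4-OHT, and 9229, 8094 and 8337 in vector cells in vehicle. The highest library of TFEB cells in 4-OHT, at 3829.8, was far below the lowest of the 9 others, at 7008, and the fall within TFEB cells was 1.97-fold (log2 -0.98 ± 0.08 SE, adjusted p = 6.2e-11, limma). Spib (7:44525993-44532071, minus strand), an ETS factor of B cells, had 1078, 1042 and 1012 in TFEB cells in 4-OHT, 1336, 1396 and 1525 in TFEB cells in vehicle, 1831, 1779.6 and 1952 in vector cells in 4-OHT, and 1844, 1667 and 1714 in vector cells in vehicle. Spib was thus lowest in TFEB cells in 4-OHT, next in TFEB cells in vehicle, and highest in the vector groups, which overlapped with each other only. Its fall within TFEB cells was 1.36-fold (log2 -0.44 ± 0.09 SE, adjusted p = 0.000503, limma).

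Erg showed the largest fold change of the 10 and was the factor whose starting level differed most between the lines. Erg (16:95359169-95586593, minus strand) had 568, 573 and 583 in TFEB cells in 4-OHT, 4087, 3604 and 3893 in TFEB cells in vehicle, 1293, 1527 and 1157 in vector cells in 4-OHT, and 1647, 1772 and 2247 in vector cells in vehicle. None of the 4 groups overlapped with another. Within TFEB cells Erg fell 6.70-fold (log2 -2.74 ± 0.11 SE, adjusted p = 1.27e-18, limma). Erg is also a factor of endothelial cells, and of 10 endothelial marker genes only Pecam1, which B cells also express, had a mean over 100. The summed level of those 10 genes was 699 to 838 in TFEB cells in 4-OHT, 856 to 892 in TFEB cells given vehicle, 894 to 931 in vector cells given 4-OHT and 813 to 855 in vector cells in vehicle.

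Pou2af1 and Bcl11a rose. Pou2af1 (9:51213708-51240080, plus strand), the B cell coactivator of octamer-binding factors, had 11233.5, 10914 and 11669 in TFEB cells in 4-OHT, 8314, 8054 and 8731 in TFEB cells in vehicle, 9299, 9185 and 10169.5 in vector cells in 4-OHT, and 8404, 8722 and 8784 in vector cells in vehicle. The TFEB libraries in 4-OHT were the 3 highest, and the vehicle groups overlapped. The rise in TFEB cells was 1.35-fold (log2 0.43 ± 0.08 SE, adjusted p = 4.38e-05, limma). Bcl11a (11:24078056-24174123, plus strand) had 3141, 3589.7 and 3334 in TFEB cells in 4-OHT, 2583, 3199 and 2447 in TFEB cells in vehicle, 2287, 2219.8 and 2769.8 in vector cells in 4-OHT, and 2053, 1936 and 2045 in vector cells in vehicle. The highest library in vehicle exceeded the lowest in 4-OHT, and the 1.23-fold rise (log2 0.30 ± 0.10 SE, adjusted p = 0.0235, limma) had the highest adjusted p of the 10. In limma it no longer passed without TFEB 4-OHT library 2 (adjusted p = 0.12) or 3 (0.0623), or without TFEB vehicle library 1 (0.0935) or 3 (0.136), and it was also lost in edgeR (adjusted p = 0.0871); its alternatives ran from 0.000921 to 0.136.

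**Figure D1:**
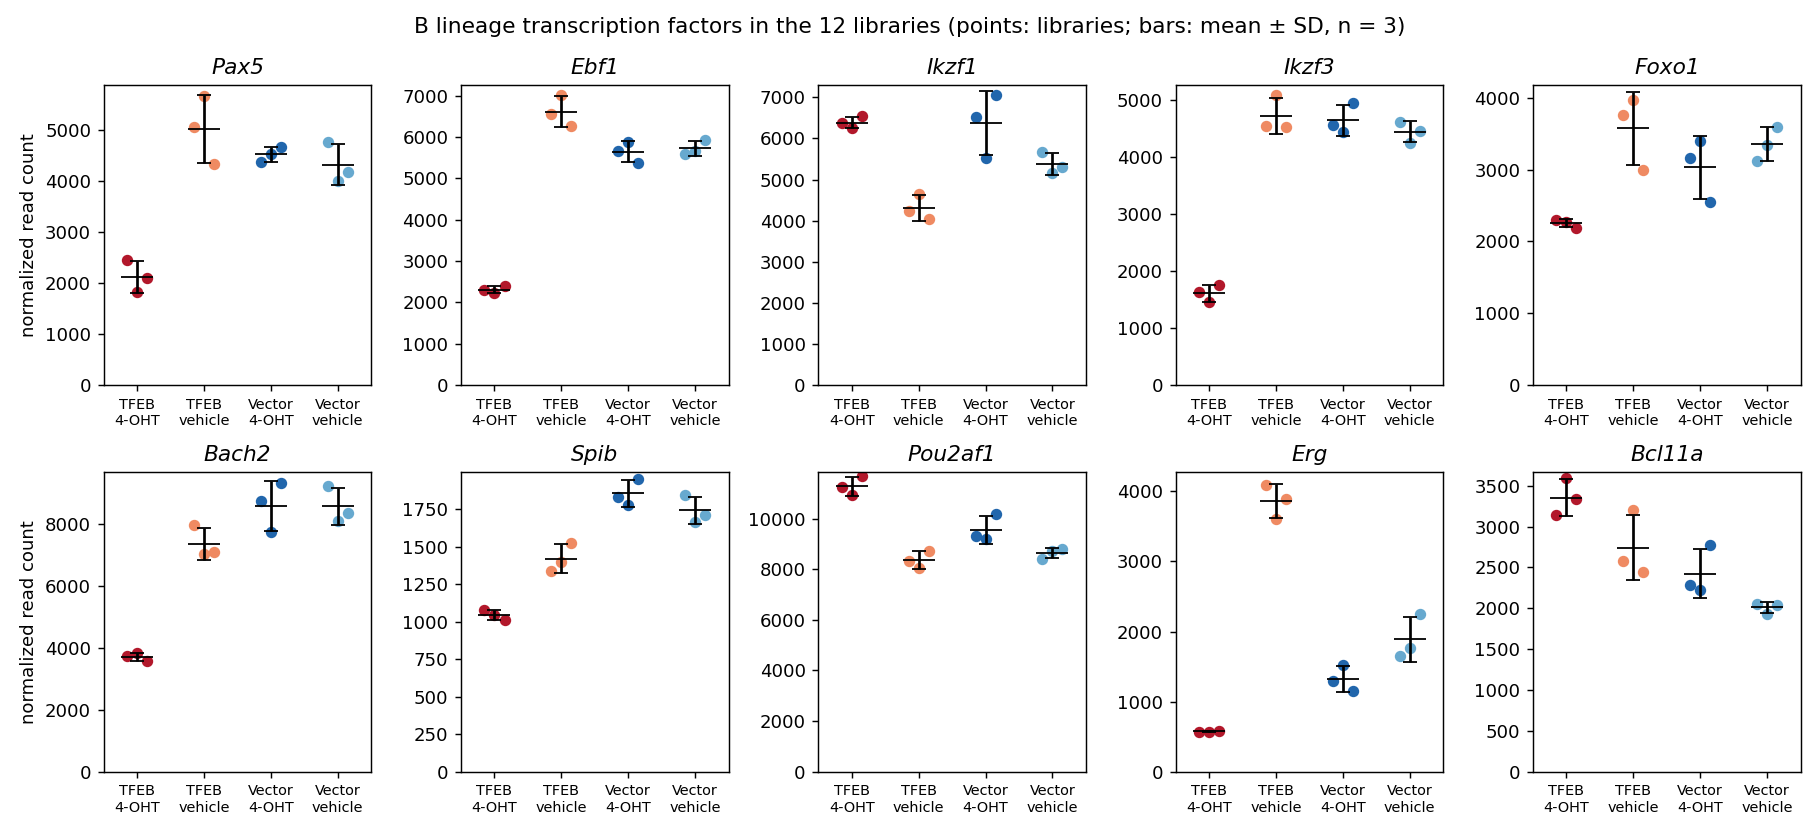
Normalized read count (vertical axis, from 0, a separate scale for each gene) of the 10 factors in the 4 groups along the horizontal axis; points are libraries and bars are the mean ± SD (n = 3). Pax5, Ebf1, Ikzf3, Foxo1, Bach2, Spib and Erg were lowest in all 3 TFEB libraries in 4-OHT, and Pou2af1 was highest there.

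Across the 10 factors, 7 were lower and 3 higher with 4-OHT in TFEB cells. Over all tested genes 27.5% passed the threshold, an adjusted p under 0.05 in limma, 13.7% higher and 13.9% lower. In 9 of the 10 the libraries in 4-OHT and in vehicle did not overlap, as was so for 38.0% of all tested genes. The median log2 change was -0.82 over the 10 factors and 0.04 over all tested genes. RNA of cell mixtures does not separate fewer cells of a type from less RNA per cell, and here the 2 cannot be told apart.

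In vector cells 0 of the 10 factors passed for 4-OHT in limma, against 0.0153% of all tested genes, while 3 of the 10 (Erg, Ikzf1 and Bcl11a) had an unadjusted p under 0.05. The limma test called 2 genes in all, but 55 without vector 4-OHT library 2, 25 without vector vehicle library 1, and 0 without TFEB 4-OHT library 3, TFEB vehicle library 1, vector 4-OHT library 1 or 3, or vector vehicle library 2 or 3. It gave 822 genes an unadjusted p under 0.05, while edgeR called 0 genes and DESeq2 48. Log2 differences of 9 factors ran from -0.15 for Foxo1 to 0.26 for Bcl11a, with a median of 0.07 over all 10 and 0.03 over all tested genes. Erg had the largest difference, -0.51 ± 0.11 SE (adjusted p = 0.137, limma), with its vector libraries in 4-OHT below those in vehicle. Erg did pass without vector 4-OHT library 2 (log2 -0.61, adjusted p = 0.0112, limma), without vector vehicle library 1 (log2 -0.60, adjusted p = 0.029, limma), and in DESeq2 (adjusted p = 0.00903); its alternatives ran from 0.00903 to 0.929.

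The difference between the 4-OHT responses of TFEB and vector cells was tested for each factor as an interaction. It passed for the 7 factors that fell in TFEB cells and for 0 of the 3 that rose, against 15.8% of all tested genes, 8.01% in the lower direction. Erg had the largest, -2.24 ± 0.16 SE in log2 (adjusted p = 2.44e-12, limma). Ikzf3 followed at -1.61 ± 0.12, Ebf1 at -1.50 ± 0.11, Pax5 at -1.32 ± 0.14 and Bach2 at -0.98 ± 0.12, all with adjusted p at or below 1.74e-07 in limma. For Spib it was -0.53 ± 0.13 (adjusted p = 0.00467, limma) and for Foxo1 -0.50 ± 0.15 (adjusted p = 0.0142, limma). The Foxo1 call was lost without vector 4-OHT library 2 (log2 -0.42, adjusted p = 0.0619, limma) and without the variance trend (adjusted p = 0.14, limma), over a range of 0.000263 to 0.14. Ikzf1, at 0.33 ± 0.12 (adjusted p = 0.0612, limma), and Pou2af1, at 0.29 ± 0.11 (adjusted p = 0.0702, limma), did not pass in limma. Tools and settings disagreed: DESeq2 called both (adjusted p = 0.0301 for Ikzf1 and 0.00909 for Pou2af1), as did limma with array weights (0.0161 and 0.0154) and with a minimum of 50 (0.0492 and 0.0476). Ikzf1 also passed without TFEB vehicle library 2 (adjusted p = 0.0272, limma) or vector 4-OHT library 3 (0.0161), over a range of 0.0161 to 0.345, and Pou2af1 without vector 4-OHT library 3 (adjusted p = 0.0331, limma), over a range of 0.00909 to 0.181. For Bcl11a the interaction was 0.03, with a 95% interval of -0.25 to 0.32, with log2 changes of 0.30 in TFEB cells and 0.26 in vector cells, where it was not called.

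**Figure D2:**
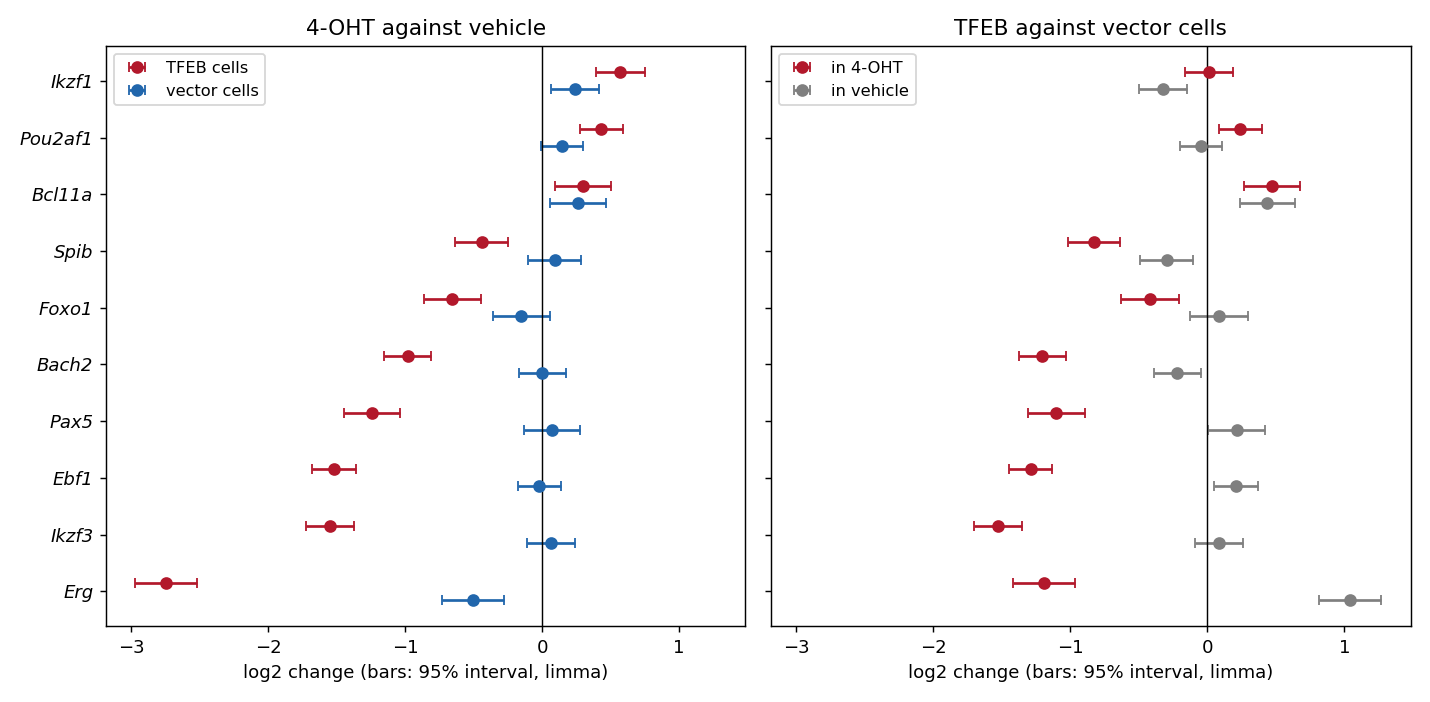
Log2 changes of the 10 factors on the horizontal axis with 95% intervals from limma (n = 3 libraries a group); the left panel has 4-OHT against vehicle in TFEB cells (red) and in vector cells (blue), the right panel TFEB against vector cells in 4-OHT (red) and in vehicle (grey). In the left panel 7 factors lie below 0 in TFEB cells, down to -2.74 for Erg, and the vector values lie between -0.51 and 0.26.

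Between the lines in vehicle, where no ligand was given, 3 factors differed, against 5.38% of all tested genes, 2.89% higher and 2.49% lower in TFEB cells. Erg was 2.06-fold higher in TFEB cells than in vector cells (log2 1.04 ± 0.11 SE, adjusted p = 1.01e-07, limma), which is the direction opposite to its response to 4-OHT. Bcl11a was higher by 0.44 ± 0.10 in log2 (adjusted p = 0.00555, limma) and Ikzf1 lower by a log2 difference of -0.32 ± 0.09 (adjusted p = 0.0211, limma). Bcl11a lost the call without TFEB vehicle library 2 (log2 0.32, adjusted p = 0.0656, limma), over a range of 0.000402 to 0.13. Ikzf1 lost it without TFEB vehicle library 1 (adjusted p = 0.0608, limma) or 3 (0.0891) and without vector vehicle library 1 (0.107) or 3 (0.0597), over a range of 0.00248 to 0.165. The other 7 factors did not pass in limma. DESeq2 and limma with array weights called Ebf1 higher in TFEB cells (adjusted p = 0.0215 and 0.0491), which had a log2 difference of 0.21 ± 0.08 (adjusted p = 0.126, limma) and a range of 0.0215 to 0.301. They also called Spib lower (adjusted p = 0.00602 and 0.0076). The log2 difference of Spib was -0.30 ± 0.09 (adjusted p = 0.0632, limma) and passed without TFEB vehicle library 3 (adjusted p = 0.0414, limma), over a range of 0.00602 to 0.234. The median log2 difference was 0.08 over the 10 factors and 0.05 over all tested genes.

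Between the lines in 4-OHT, 7 factors were lower and 2 higher in TFEB cells, against 27.1% of all tested genes, 13.6% higher and 13.5% lower. This comparison shares the TFEB libraries in 4-OHT with the comparison within TFEB cells, so its values do not count as separate support. Ikzf3 differed by -1.53 in log2, Ebf1 by -1.29, Bach2 by -1.20, Erg by -1.19, Pax5 by -1.10, Spib by -0.83 and Foxo1 by -0.42 (adjusted p at most 0.00202 for each, limma). The Erg value was smaller than the -2.74 within TFEB cells, whose level in vehicle was above that of vector cells, as given above. Bcl11a was higher by 0.47 (adjusted p = 0.000395, limma) and Pou2af1 by 0.24 (adjusted p = 0.017, limma). The call of Pou2af1 was lost without TFEB 4-OHT library 3 (adjusted p = 0.0908, limma) and without vector 4-OHT library 1 (0.0669) or 2 (0.0701), and in edgeR (0.0611), over a range of 0.000825 to 0.0908. That of Foxo1 was lost without the variance trend (adjusted p = 0.0535, limma), over a range of 6.98e-05 to 0.0535. Ikzf1, with a log2 difference of 0.01 and a 95% interval of -0.17 to 0.19, was not shown to differ. The median was -0.97 over the 10 factors and 0.05 over all tested genes.

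Per kilobase of exon, a scale on which different genes can be roughly compared, Pou2af1 had the highest level of the 10 in every group, at 4422 ± 149 in TFEB cells in 4-OHT, 3282 ± 134 in TFEB cells given vehicle, 3747 ± 211 in vector cells given 4-OHT and 3388 ± 80.0 in vector cells in vehicle (SD, n = 3 each). Ikzf1 came second in 3 groups. Erg was second in TFEB cells in vehicle, with 1114 ± 70.2 per kilobase, and last in TFEB cells in 4-OHT, with 166 ± 2.18, while it ranked 8 in vector cells in 4-OHT (382 ± 54.0) and 6 in vector cells in vehicle (545 ± 91.3). Bcl11a was the lowest of the 10 in the remaining groups, with 208 ± 30.4 in TFEB cells in vehicle, 184 ± 22.8 in vector cells given 4-OHT and 153 ± 4.97 in vector cells in vehicle, and ranked 6 in TFEB cells in 4-OHT, with 255 ± 17.1. Exon length came from a single annotation for all libraries, so a change in the transcripts used was not followed. The length takes in every annotated exon of a gene, whether or not these cells use it. Ranks between genes therefore depend on it, with 13175 bases for Bcl11a and 2549 for Pou2af1.

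**Figure D3:**
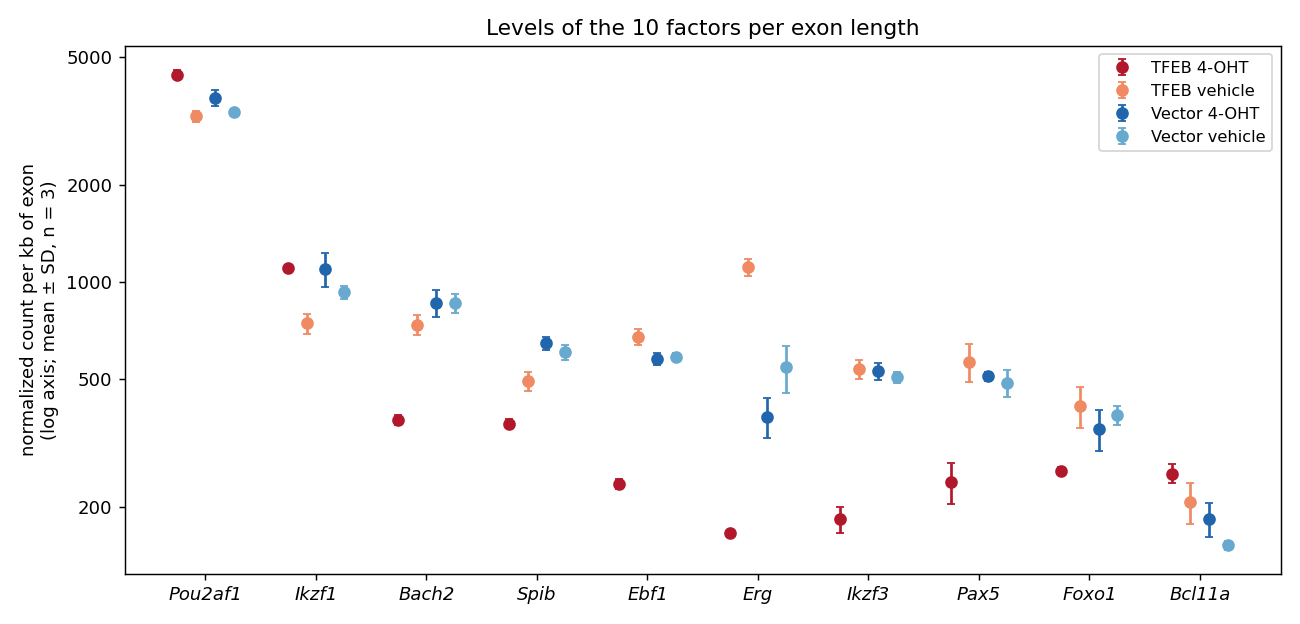
Normalized count per kilobase of exon (log axis, mean ± SD, n = 3) of the 10 factors, for TFEB cells in 4-OHT, TFEB cells in vehicle, vector cells in 4-OHT and vector cells in vehicle. Pou2af1 lies between 3282 and 4422 in all groups, and Erg is spread most, between 166 and 1114.

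Patterns over the 12 libraries were compared as the root mean square of the difference between genes, each on the log2 scale after taking off its own mean, as a description. Among the 10 factors Ebf1 and Ikzf3 were closest, at 0.124, then Pax5 and Ebf1, at 0.166, and Ikzf1 and Pou2af1, at 0.167. Ikzf1 and Erg were farthest, at 1.22. Among 8466 other genes whose mean reached 100, the nearest to Pax5 was Slamf7, a surface receptor (0.098), the nearest to Ebf1 was Fam78a (0.103) and the nearest to Ikzf3 was Chst3, a sulfotransferase (0.079). Foxo1 had Cisd1 nearest (0.077), Bach2 had Acsf2 (0.102), Spib had Zeb2, a zinc finger repressor (0.091), and Pou2af1 had Cd164 (0.058). Ikzf1 had Nploc4 (0.094) and Bcl11a had Mpp6 (0.118). Erg had Grb10, a signalling adaptor, nearest (0.268). This measure grows with a gene's own spread, which was 0.996 for Erg and 0.174 (Pou2af1) to 0.662 (Ikzf3) for the others, so it does not rank the factors by how near their neighbours are.

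Of 16 tested relatives of the factors in the same protein families, 2 were higher, 3 lower and 11 did not pass in TFEB cells given 4-OHT, with a median log2 change of 0.01. The share called, 31.2%, was near the 27.5% of all tested genes. Ebf3, Ikzf2 and Foxo6, none of which passed, would not have met the minimum without TFEB cells in 4-OHT. Ets2, an ETS factor, rose 6.26-fold to 2370 ± 132 in TFEB cells in 4-OHT, against 379 ± 46.3 in TFEB cells given vehicle, and its level was 867 ± 50.9 in vector cells in 4-OHT and 977 ± 120 in vector cells in vehicle. Ets1 fell 1.64-fold, Pou2f2 (Oct2), a partner of Pou2af1, 2.28-fold and Foxo3 1.42-fold, and Fli1, the closest relative of Erg, rose 1.28-fold (adjusted p at most 0.00249 for each, limma). The fellow ETS factors Erg and Ets2 therefore had levels in opposite order in the TFEB groups: Erg was higher in vehicle and Ets2 higher in 4-OHT. Between the lines in vehicle Ets2 differed by -1.36 in log2 (adjusted p = 1.13e-09, limma), again opposite to Erg.

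Of 30 other transcription factors of the B lineage that were tested, 14 fell, 9 rose and 7 did not pass in TFEB cells given 4-OHT, with a median of -0.17. The share called was 76.7%, against 27.5% of all tested genes, 13.7% higher and 13.9% lower. This list was chosen with earlier results of these data known, as were those below. Id3, an inhibitor of E proteins, fell 11.5-fold to 67.4 ± 21.2, against 767 ± 74.1 in vehicle (adjusted p = 2.97e-16, limma). Mef2c, which supports B cell precursors, fell 3.63-fold to 794 ± 155, against 2853 ± 282, and Klf2, a regulator of quiescence, fell 3.38-fold to 36.4 ± 13.1, against 122 ± 21.7. Gfi1, a zinc finger repressor, rose 4.44-fold to 1109 ± 91.3, against 249 ± 26.2 (adjusted p = 1.09e-10, limma).

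Genes that the factors are known to control were taken from textbook knowledge, and the lists overlap with each other and with the 10 factors. Of 19 tested genes that Pax5 is known to activate, 14 fell, 2 rose and 3 did not pass with 4-OHT in TFEB cells, with a median of -0.68. The share called was 84.2%, against 27.5% of all tested genes. Vpreb3, a chaperone of the precursor receptor, fell 6.35-fold to 985 ± 55.0, against 6261 ± 425 in vehicle (adjusted p = 4.84e-20, limma). Siglecg, an inhibitory lectin, fell 5.57-fold to 95.01 ± 23.97, against 534 ± 133. Bank1, a signalling scaffold, had 13.6 ± 12.7 in 4-OHT and 51.7 ± 5.39 in vehicle, and its call (adjusted p = 0.023, limma) was lost without TFEB 4-OHT library 1 (adjusted p = 0.247) and without TFEB vehicle library 1 (0.069) or 3 (0.0524), over a range of 0.00708 to 0.247. Its log2 change of -2.80 was -1.34 without TFEB 4-OHT library 1 and -3.69 without TFEB 4-OHT library 3. Blnk, an adaptor of receptor signalling, rose 1.43-fold (adjusted p = 2.65e-05, limma). Cd79a, a chain of the receptor, was 1.18-fold higher (adjusted p = 0.0389, limma), a call lost without TFEB 4-OHT library 1 (adjusted p = 0.147) or 3 (0.1035) or TFEB vehicle library 2 (0.198) or 3 (0.0821), over a range of 0.0113 to 0.198.

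Of 15 genes that Pax5 is known to repress, 13 were tested. Of these, 7 met the minimum of 10 normalized counts in 3 libraries only through TFEB cells in 4-OHT, among them Ccl3, Cd33, Fcer1g, Lilrb4 and Cd28, so a count or a median over the list would be set by that filter and only values are given. Ccl3, a chemokine, reached 1645 ± 142 in TFEB cells in 4-OHT and was at 0 in all 3 TFEB libraries in vehicle, so it was at least 397-fold higher than the floor of 3 reads, which is 4.15 normalized counts in the shallowest of them. Cd33, a myeloid lectin, reached 59.2 ± 5.67 and was at least 14.3-fold higher, and Fcer1g, a signalling chain of Fc receptors, reached 52.1 ± 21.5 and was at least 12.6-fold higher. Lilrb4, an inhibitory receptor whose reads may be shared with a near-identical relative, had 1320.1 ± 370 in 4-OHT and 7.07 ± 7.66 in vehicle, Cd28, a T cell costimulator, 401 ± 28.8 in 4-OHT and 6.96 ± 8.61 in vehicle, and Grap2, a T cell adaptor, 1408 ± 198 in 4-OHT and 146 ± 48.9 in vehicle. The log2 changes of Lilrb4 and Cd28, 8.06 and 6.47, were 6.92 and 5.38 without TFEB vehicle library 2 and 8.93 and 7.45 without TFEB vehicle library 3. Notch1, the receptor for T lineage choice, fell 1.43-fold (adjusted p = 0.00129, limma). Flt3, the cytokine receptor that Pax5 is known to silence, did not pass (14.2 ± 18.3 in 4-OHT and 32.2 ± 14.2 in vehicle, adjusted p = 0.0917, limma), but passed in the lower direction without TFEB 4-OHT library 2 (adjusted p = 0.00883); alternatives gave 0.00883 to 0.588. Its log2 difference of -2.17 was -3.37 without that library and -0.79 without TFEB 4-OHT library 1. In vector cells 0 of these 13 passed for 4-OHT in limma, edgeR or DESeq2, against 0.0153% of all tested genes in limma. Also, 0 had an unadjusted p under 0.05 in limma. The 7 that met the minimum only through TFEB cells in 4-OHT were low in vector cells by that filter. Their lack of a call there is therefore no result.

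Of 19 genes known to be activated by Ebf1, which include Pax5, Foxo1 and Pou2af1, 12 fell, 4 rose and 3 did not pass, with a median of -0.66. The share called was 84.2%, against 27.5% of all tested genes. Blk, a Src-family kinase, had 8.51 ± 7.37 in TFEB cells in 4-OHT and 139 ± 52.6 in TFEB cells in vehicle (adjusted p = 2.93e-07, limma). Its log2 change of -4.54 was -3.28 without TFEB 4-OHT library 1, -5.17 without library 2 and -5.16 without library 3 of that group. Igll1 and Vpreb1, the surrogate light chain genes, fell 2.86-fold and 2.90-fold. Egr3, an immediate early factor that met the minimum only through TFEB cells in 4-OHT, rose to 85.6 ± 10.9, against 7.39 ± 3.43, a call (adjusted p = 0.0167, limma) that was lost without TFEB 4-OHT library 3 (adjusted p = 0.0745) or TFEB vehicle library 2 (0.0557) and in edgeR (0.0568), over a range of 0.000171 to 0.103.

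Of 17 tested genes known as Foxo targets, 11 fell, 2 rose and 4 did not pass, with a median of -0.77. The share called was 76.5%, against 27.5% of all tested genes. Rag1 and Rag2, the recombinase genes, fell 13.6-fold to 94.5 ± 26.9, against 1265 ± 126, and 12.9-fold to 18.4 ± 17.7, against 197 ± 66.9. The log2 change of Rag2, -3.69, was -4.41 without TFEB 4-OHT library 2, whose value of 38.7 was above the 10.8 and 5.82 of the other TFEB libraries in 4-OHT. Pik3ip1, an inhibitor of PI3 kinase, rose 4.84-fold to 1659 ± 125, against 343 ± 38.2. Of 13 genes that act on Foxo1 through PI3 kinase, AKT or its stability, 2 rose, 2 fell and 9 did not pass, a share called of 30.8%, near that of all tested genes. Akt1, a kinase that keeps Foxo1 out of the nucleus, rose 1.49-fold and Inpp5d, an inositol phosphatase, rose 1.48-fold (adjusted p at most 3.87e-06 for each, limma). The activity of the Foxo1 protein was not measured.

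**Figure D4:**
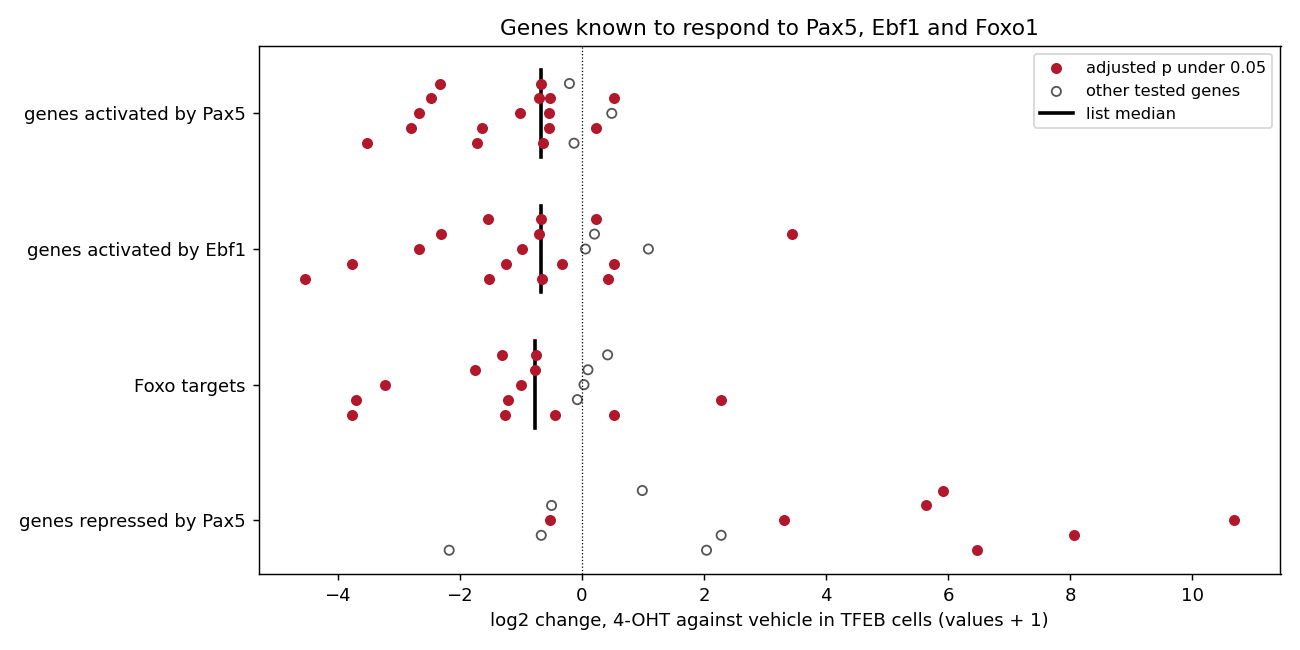
Log2 change with 4-OHT in TFEB cells (horizontal axis) of each tested gene in 4 lists of genes known to respond to Pax5, Ebf1 and Foxo1; filled points had an adjusted p under 0.05 and vertical bars are the medians of 3 of the lists. The medians are -0.68 for genes activated by Pax5, -0.66 for those activated by Ebf1 and -0.77 for Foxo targets; none is drawn for genes repressed by Pax5, of which 7 of 13 met the minimum value only through TFEB cells in 4-OHT.

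Of the genes that Bach2 is known to repress, 3 were tested, of which 1 rose and 2 did not pass. The share called was 33.3%, against 27.5% of all tested genes. Hmox1, heme oxygenase, had 16.9 ± 15.9 in TFEB cells in 4-OHT and 13.9 ± 16.7 in TFEB cells in vehicle (adjusted p = 0.846, limma). Gclm, an enzyme of glutathione synthesis, rose 1.30-fold (adjusted p = 0.0139, limma), a call lost without TFEB 4-OHT library 1 (adjusted p = 0.05004) or TFEB vehicle library 3 (0.0609), over a range of 0.00198 to 0.0609. Prdm1 (Blimp1), the plasma cell regulator that Pax5 and Bach2 are known to restrain, had 52.7, 104.6 and 78.6 in TFEB cells in 4-OHT, 6.00, 30.9 and 16.6 in TFEB cells in vehicle, 13.96, 26.1 and 0 in vector cells in 4-OHT, and 2.21, 1.57 and 0 in vector cells in vehicle. The TFEB libraries in 4-OHT were the 3 highest, but the comparison with TFEB cells in vehicle did not pass (adjusted p = 0.126, limma, over a range of 0.00781 to 0.361). It did in limma with only the groups compared (adjusted p = 0.0152), with array weights (0.00781) and with 10 added to each value in place of 1 (0.0101). TFEB cells in 4-OHT, at 78.6 ± 25.9, were called higher than vector cells in 4-OHT, at 13.4 ± 13.1 (adjusted p = 0.0187, limma), a call lost without TFEB 4-OHT library 2 (adjusted p = 0.0722) or 3 (0.0689) or vector 4-OHT library 3 (0.178), over a range of 0.00217 to 0.178. That log2 difference, 3.37, was 4.31 without vector 4-OHT library 2 and 1.93 without vector 4-OHT library 3.

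Some markers of B cells and of other cell types also changed in TFEB cells given 4-OHT, in both directions for B cell and plasma cell markers. Their part in the results was not tested. The summed level of 12 B cell markers was 69224 to 70926.5 in TFEB cells in 4-OHT, 83467 to 85537 in TFEB cells given vehicle, 86829 to 96628 in vector cells given 4-OHT and 84332 to 90359.5 in vector cells in vehicle. Of the 11 tested, 6 fell, 3 rose and 2 did not pass in TFEB cells, with a median of -0.70. The share called was 81.8%, against 27.5% of all tested genes. Cd22, an inhibitory receptor, fell 2.01-fold, while Cd37 rose 1.55-fold. The sum of 13 plasma cell markers was 32232 to 33462 in TFEB cells in 4-OHT, 24206 to 25846.5 in TFEB cells given vehicle, 23118 to 24308 in vector cells given 4-OHT and 23708 to 24351 in vector cells in vehicle. Xbp1, the secretory regulator, rose 2.90-fold, Fam46c was at least 777-fold higher than the floor, Slamf7 fell 2.27-fold, and the plasma cell receptor gene Tnfrsf17 was below 10 in every library. Of the 10 plasma cell markers tested, 4 rose, 2 fell and 4 did not pass, a share called of 60.0%, against 27.5% of all tested genes. Fam46c and Cd28, 2 of those that rose, met the minimum only through TFEB cells in 4-OHT.

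The sum of 15 T cell markers was 3559 to 3762 in TFEB cells in 4-OHT, 1713 to 1889.7 in TFEB cells given vehicle, 1031 to 1269 in vector cells given 4-OHT and 1036 to 1391 in vector cells in vehicle. Of the 11 tested, 3 rose and 8 did not pass, a share called of 27.3%, against 27.5% of all tested genes. Within TFEB cells Lat rose to 537 ± 29.3 in 4-OHT, against 225 ± 51.9 in vehicle (adjusted p = 9.01e-05, limma). Cd247 rose there to 789 ± 78.4 in 4-OHT, against 461 ± 125 in vehicle (adjusted p = 0.000953, limma). Cd5 did not pass, with 106.9 ± 24.6 in 4-OHT and 18.05 ± 13.72 in vehicle, although these TFEB groups did not overlap. Cd3e and Cd5 would not have met the minimum without TFEB cells in 4-OHT. Tcf7, which encodes the T lineage factor TCF1, rose to 1309 ± 158 in TFEB cells in 4-OHT, against 17.5 ± 7.97 in TFEB cells given vehicle, 8.32 ± 2.08 in vector cells given 4-OHT and 15.7 ± 6.82 in vector cells in vehicle (adjusted p = 5.82e-11 within TFEB cells, limma). The defining T cell gene Cd3e had group means of 9.43 in TFEB cells in 4-OHT, 4.98 in TFEB cells given vehicle, 6.72 in vector cells given 4-OHT and 1.47 in vector cells in vehicle, and Cd4, Cd8a and Cd3d had too few reads to be tested. The sum of 16 myeloid markers was 264 to 472 in TFEB cells in 4-OHT, 141 to 196 in TFEB cells given vehicle, 85.4 to 161 in vector cells given 4-OHT and 69.7 to 111 in vector cells in vehicle. Of 7 tested only Cd68, a lysosomal protein of macrophages, rose (2.52-fold), a share called of 14.3%. Csf1r, Emr1, Fcgr1 and Fcgr3 would not have met the minimum without TFEB cells in 4-OHT. Of 6 endothelial and 5 stromal markers tested, 0 passed within TFEB cells in limma, edgeR or DESeq2, and 0 had an unadjusted p under 0.05 in limma. Among these, Tek, Eng, Col1a2 and Cxcl12 would not have met the minimum without TFEB cells in 4-OHT.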

How the data were processed

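The deposited values are a signal that is never negative, normalized read counts per gene and library. The authors divided each library's gene counts by 1 size factor, as the file's values show: in every library 100% of values were whole multiples, within 0.001, of the value of 1 read, so whole reads were recovered. STAR 2.5.3, HTSeq 0.6.1, DESeq2 1.6.3 and mm10 are named, per the submitters' processing notes. The roles of these tools, the annotation and strandedness were not given in the sources used here, and reads of Pax5 and of genes on its other strand (5730488B01Rik, at most 40.6) cannot be separated. Likewise, reads of Bach2, Bcl11a, Foxo1 and Ikzf1 cannot be separated from those of other-strand genes that touch their exons and have no values here.

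Genes with at least 10 in 3 or more libraries were tested (13111 of 23479). limma 3.58.1 (R 4.3.3) was fitted to log2(value + 1) of all 12 libraries with 4 group means and a variance trend (8 residual degrees of freedom), with Benjamini-Hochberg adjustment over all tested genes and a threshold of 0.05. For low genes the log2 change depends on the added 1 and on libraries at or near 0, so it can understate or overstate the fold. edgeR 4.0.16 and DESeq2 1.42.0 on whole reads, other scalings, filters and left-out libraries were alternatives. The factors and lists were chosen with earlier results of these data known. All 10 factors are named, and of each list up to 4 members with the largest called change and groups that do not overlap, or the smallest adjusted p, with further examples chosen after their values were seen. A value of 0 allows up to 3 reads, 2.21 to 4.15 normalized counts by library, which covers counting error only, since PCR copies are not independent molecules. Between libraries of a group, chi-square per degree of freedom was 7.88 to 25.5. Gene positions and exon lengths are from GENCODE M21 (GRCm38). The fits were tested on simulated data. Some list members are not reported here by name.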

Additional observations from a re-analysis of the deposited data

Results flagged for a closer look

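The response to 4-OHT differed between TFEB and vector cells for 7 of the 10 factors, by limma's test of the interaction. That test passed for 15.8% of all tested genes, 8.01% in the lower direction. The Foxo1 call was lost in some alternatives, as given above. In log2, the response of TFEB cells minus that of vector cells was -2.237 for Erg, -1.613 for Ikzf3, -1.499 for Ebf1, -1.315 for Pax5, -0.983 for Bach2, -0.531 for Spib and -0.504 for Foxo1. In TFEB cells the libraries in 4-OHT lay below those in vehicle for each of these factors. The TFEB and vector lines come from a single lymphoma, and a property of either line cannot be told apart from the fusion.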

How the results depend on the processing

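Of 29 called results of the factors, 23 kept their call and direction under every alternative run, and 0 changed direction under any. The number of called factors, leaving out 1 library at a time, was 9 to 10 for 4-OHT in TFEB cells (all genes 2975 to 3734), 0 to 1 for 4-OHT in vector cells (0 to 55), 6 to 9 for the interaction (1773 to 2108), 2 to 3 between the lines in vehicle (433 to 824, with 433, 439 and 466 without vector vehicle library 3 or 2 or TFEB vehicle library 2) and 8 to 9 between them in 4-OHT (2973 to 3752). In vector cells 1 factor, Erg, was called with DESeq2, array weights or without vector 4-OHT library 2 and TFEB vehicle library 3 together, a pair chosen from an earlier analysis of these data. All-gene calls there were 48, 42 and 61 under those settings, and 0 with a minimum of 50, edgeR, upper-quartile scaling, no variance trend or only the groups compared. Between the lines in vehicle 5 factors were called with DESeq2 and with array weights, and 1 with no variance trend and with only the groups compared, with 1214, 1125, 259 and 352 genes in all. Some log2 differences that passed in no setting changed sign. Leaving out 1 library at a time, they ran from -0.052 to 0.013 for Ebf1 and -0.058 to 0.077 for Bach2 in vector cells, -0.043 to 0.151 for the Bcl11a interaction, and -0.088 to 0.088 for Ikzf1 between the lines in 4-OHT. With edgeR and TMM scaling Bach2 was -0.022 and -0.025 and Ikzf1 was -0.029 and -0.021, and Ikzf1 was -0.003 with upper-quartile scaling. Without that pair of libraries the Bcl11a interaction was -0.103 and Ikzf1 between the lines in 4-OHT -0.088. The cause was not tested. Deviations of same-numbered libraries of different groups had correlations of -0.115 to 0.165, and those of different-numbered libraries -0.232 to 0.19. This does not settle whether the numbers pair the libraries, since a shared culture or day may leave little trace in 3 libraries a group. With the replicate number as a block 10, 0, 7, 3 and 9 factors were called in the 5 comparisons, as without it. The interaction has no fit with only the groups compared, since it uses all 4. Differences under the spread of 3 libraries were not detectable here.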
